A study of Mus musculus with 18 samples.

Results

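The engineered loci Trp53, Cdkn2a, Cdkn2b and Myc are 4 of the 24421 genes counted in each of 3 bulk RNA-seq tables of libraries labelled as mouse esophageal organoids. They were taken as the rows carrying these symbols, and each was found once in every table. Organoids are cultures that grow from dissociated tissue in a gel and keep some of its organisation. All 18 libraries were declared Trp53-/-, Myc OE (overexpression) and sgCdkn2a (a guide RNA against Cdkn2a), so controls and comparison groups carry the same alterations at these loci. Cdkn2b has no alteration of its own in the labels, and it is described here because it lies beside Cdkn2a.

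The premalignant table held 3 libraries with the control guide sgScr and 4 with the guide sgTgfbr2, which targets the type II receptor of TGF-beta. Of these 4, titles number 2 as sgTgfbr2_1 and 2 as sgTgfbr2_2. The tumor table held 3 libraries labelled tumor sgScr and 2 labelled tumor sgTgfbr2. The third table held tumor organoids declared with all of these alterations, sgTgfbr2 included. Of its libraries, 3 received DMSO as vehicle and 3 received pinaverium bromide (PB), a calcium channel blocker, at 2 µM once they had grown for 72 h. The listed medium, the same for every library, contains A83-01 at 2 µM, which blocks the kinase of the type I TGF-beta receptor. The labels give no strain, age or sex. They do not say which bases of Trp53 are missing, where the Cdkn2a guide cuts, whether a group is 1 clone, or which construct raises Myc. Nor do they state that replicates are separate cultures, animals or dissociations. The p-values below therefore reflect the spread among these particular libraries, part of which can be technical.

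As background, p53 is a transcription factor, encoded by Trp53, that stops the cell cycle or starts cell death after DNA damage or oncogene activity. Cdkn2a encodes 2 proteins from 2 start sites: p16INK4a, which inhibits CDK4 and CDK6 and so keeps RB active, and p19ARF, which holds back MDM2 and so stabilises p53. Cdkn2b encodes p15INK4b, another CDK4 and CDK6 inhibitor, and is a textbook target of TGF-beta signalling through SMAD proteins. MYC is a transcription factor that pairs with MAX at E-box sequences and drives growth and ribosome production, and it can repress Cdkn2b.

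In GENCODE M21 (build GRCm38), Trp53 lies at chr11:69580359-69591873 on the plus strand and Myc at chr15:61985391-61990374 on the plus strand. Cdkn2a lies at chr4:89274471-89294653 and Cdkn2b at chr4:89306299-89311039, both on the minus strand and 11.646 kb apart. No annotated gene overlaps any of the 4. The joined exons measure 4.045 kb for Trp53, 1.172 kb for Cdkn2a, 1.39 kb for Cdkn2b and 2.717 kb for Myc. Reads of the 2 Cdkn2a transcript groups share exons, so the gene-level count does not separate p16INK4a from p19ARF.

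The start regions are shown because the results turn on the adjoining genes Cdkn2a and Cdkn2b and on Trp53, which was lower in each of the 3 main comparisons. Each runs 5′ to 3′ along the gene's own strand, from 250 bases before to 50 bases after the start, as given by RefSeq for build GRCm38.p6. Capitals mark the GC box GGGCGG and the E-box CACGTG. The upstream Cdkn2a start, which leads into p19ARF, is at chr4:89294570-89294869 and the downstream one, which leads into p16INK4a, at chr4:89282143-89282442. The Cdkn2b window is chr4:89310983-89311282 (these 3 on the minus strand) and the Trp53 window is chr11:69580109-69580408 on the plus strand.
Cdkn2a upstream start: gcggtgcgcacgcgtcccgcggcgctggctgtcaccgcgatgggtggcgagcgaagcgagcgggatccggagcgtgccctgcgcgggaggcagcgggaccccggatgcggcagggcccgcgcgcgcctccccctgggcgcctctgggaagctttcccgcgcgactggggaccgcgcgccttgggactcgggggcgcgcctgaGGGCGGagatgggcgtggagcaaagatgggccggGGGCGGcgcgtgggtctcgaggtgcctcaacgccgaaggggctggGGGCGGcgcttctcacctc
Cdkn2a downstream start: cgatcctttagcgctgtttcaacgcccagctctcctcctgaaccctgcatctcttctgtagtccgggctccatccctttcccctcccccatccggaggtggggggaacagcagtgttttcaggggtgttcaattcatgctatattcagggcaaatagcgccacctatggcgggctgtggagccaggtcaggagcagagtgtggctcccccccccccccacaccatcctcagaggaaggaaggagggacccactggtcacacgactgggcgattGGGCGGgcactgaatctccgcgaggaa
Cdkn2b: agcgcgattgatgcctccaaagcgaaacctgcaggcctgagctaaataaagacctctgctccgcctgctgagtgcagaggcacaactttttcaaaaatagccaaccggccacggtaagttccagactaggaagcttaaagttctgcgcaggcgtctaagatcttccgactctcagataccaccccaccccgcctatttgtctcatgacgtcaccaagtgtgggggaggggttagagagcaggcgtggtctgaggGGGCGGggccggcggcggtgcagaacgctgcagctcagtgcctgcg
Trp53: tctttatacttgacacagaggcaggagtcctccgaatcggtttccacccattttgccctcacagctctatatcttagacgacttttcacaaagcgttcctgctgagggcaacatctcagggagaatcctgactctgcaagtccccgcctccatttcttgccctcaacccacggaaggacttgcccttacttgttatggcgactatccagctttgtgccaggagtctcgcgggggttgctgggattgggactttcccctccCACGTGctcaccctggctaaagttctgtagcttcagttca
The upstream Cdkn2a window was 77% G and C with 45 CpG pairs, against medians of 52.7% and 7 over the 32851 start regions of the same length. It held 3 GC boxes, at -48, -14 and 31 bases from the start base (counted as 0). The downstream Cdkn2a window held 60.3% G and C, 12 CpG pairs and 1 GC box at 23. The Cdkn2b window held 57.7% G and C, 18 CpG pairs, 1 GC box at 4 and the short SMAD sequence GTCTG (or CAGAC on the other strand) at -129 and -4. The Trp53 window held 52.7% G and C, 10 CpG pairs and 1 E-box at 10. Searched on both strands, GC boxes occurred in 35.7% of all start regions, the E-box in 7.15%, GTCTG in 49.6% and the full SMAD palindrome GTCTAGAC in 0.213%. None of the 4 windows held the full palindrome. GTCTAGAC contains no GTCTG, so these searches do not overlap.

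Library totals ran from 14993749 to 21784140 counts, so 3 counts stand for 0.138 to 0.200 counts per 1000000 of the library total (CPM). The 5 libraries of the tumor table stood apart from the other 13 in markers of cell types. Summed over 10 squamous epithelial markers (such as Krt5 and Krt14), the libraries labelled tumor sgScr held 122504 to 130833 CPM and those labelled tumor sgTgfbr2 23627 to 24328, against 6546 to 11759 elsewhere. Of 10 skeletal muscle markers, all had counts in tumor sgScr (18973 to 19653 CPM), whereas the sum was 18.2 to 19.4 in tumor sgTgfbr2, where Myh8 and Tnnc2 were at 0, and 7.20 to 15.9 elsewhere. For fibroblast markers, tumor sgScr libraries held 3198 to 3358 CPM and tumor sgTgfbr2 libraries 2629 to 2707, with 27.0 to 69.6 in the other tables. For immune markers the sums were 1000 to 1037, 926 to 1010 and 15.0 to 61.0 CPM in the same order, and for endothelial markers 179 to 205, 174 to 178 and 1.60 to 5.98. Of 10 gastric gland markers, 6 were at 0 in tumor sgScr libraries, whose sum was 0.119 to 0.741 CPM. All 10 had counts in tumor sgTgfbr2 libraries, with a sum of 29197 to 32173 CPM, and the sum was 0.918 to 4.50 elsewhere. The fibroblast, immune and endothelial values of these 5 libraries go against a label of esophageal organoids. So do the muscle values of tumor sgScr and the gastric values of tumor sgTgfbr2. The labels do not settle whether these 5 libraries are cultures or tissue. The part of other cell types in the results of the tumor table was not tested, and in bulk samples fewer cells of a type and less RNA per cell cannot be told apart.

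Trp53 transcripts were counted in every library, although all were declared Trp53-/-. A count over the whole gene does not check an allele whose missing part is not stated. In premalignant sgScr the libraries held 96.1, 92.0 and 92.3 CPM, in sgTgfbr2_1 61.3 and 67.8, and in sgTgfbr2_2 76.8 and 78.7. The libraries labelled tumor sgScr held 52.4, 45.5 and 48.6 CPM and those labelled tumor sgTgfbr2 26.7 and 22.9. In the PB table vehicle libraries held 74.3, 70.4 and 73.7 CPM and PB libraries 30.3, 32.3 and 33.5. The order from high to low was premalignant sgScr, sgTgfbr2_2, vehicle, sgTgfbr2_1, tumor sgScr, PB and tumor sgTgfbr2, and no pair of neighbouring groups overlapped. How many other genes separate all groups this way was not counted. Within tables, libraries did not overlap for 51.2% (premalignant), 74.3% (tumor) and 74.7% (PB) of genes tested. The group means ran from 24.8 ± 2.73 CPM (SD, n = 2) to 93.5 ± 2.27 (n = 3).

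Cdkn2a was counted at 136 CPM or more in every library but those labelled tumor sgScr, although every library was declared to carry a guide against it. A guide can leave transcription in place, so the count does not check the edit. Premalignant sgScr libraries held 281, 289.5 and 266 CPM, sgTgfbr2_1 libraries 296 and 323, and sgTgfbr2_2 libraries 361 and 382. Vehicle libraries held 306, 277 and 293 CPM and PB libraries 338, 339 and 333. In the libraries labelled tumor sgTgfbr2 the level was 168 and 136 CPM. In the libraries labelled tumor sgScr it was 0.528, 1.11 and 0 CPM, from 10, 24 and 0 counts. The exact 95% Poisson intervals of these 3 levels were 0.253 to 0.971, 0.713 to 1.65 and 0 to 0.219 CPM. They cover counting error only, and 3 counts in the library at 0 would be 0.178 CPM. In the order of group means, sgTgfbr2_2 (371 ± 14.7 CPM, n = 2) came first and PB (337 ± 2.88, n = 3) next, followed by sgTgfbr2_1, vehicle and premalignant sgScr, of which neighbours overlapped. The 2 tumor groups came last.

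Cdkn2b, for which the labels declare no alteration, was counted in every library. The levels were 30.9, 29.1 and 33.7 CPM in premalignant sgScr, 55.8 and 65.4 in sgTgfbr2_1, and 65.0 and 62.6 in sgTgfbr2_2. All 4 premalignant sgTgfbr2 libraries therefore lay above the 3 sgScr libraries. Tumor sgScr held 13.9, 7.51 and 8.26 CPM and tumor sgTgfbr2 98.6 and 84.2, the lowest and the highest group of the series. Vehicle libraries held 27.1, 29.4 and 31.4 CPM and PB libraries 41.4, 42.5 and 43.4, again without overlap. Among all genes tested, libraries did not overlap for 51.2% in the premalignant comparison, 74.3% in the tumor table and 74.7% under PB. The pairs of neighbouring groups whose libraries overlapped were sgTgfbr2_2 with sgTgfbr2_1, and premalignant sgScr with vehicle.

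Each of the 13 libraries outside the tumor table had more Myc than all 5 libraries in it. How many other genes separate the tables this way was not counted, and cell type markers also differed. Myc was at 404, 289.8 and 409 CPM in premalignant sgScr, 436 and 453 in sgTgfbr2_1, and 647 and 536 in sgTgfbr2_2. Vehicle libraries held 404, 407 and 416 CPM and PB libraries 353, 349 and 344. Those labelled tumor sgScr held 44.98, 41.8 and 47.5 CPM and those labelled tumor sgTgfbr2 51.8 and 93.3. The 2 tumor sgTgfbr2 libraries differed more from each other (72.5 ± 29.3 CPM, SD, n = 2) than tumor sgScr libraries did (44.7 ± 2.86, n = 3). The declared overexpression of Myc is shared by every library, and without a group lacking the construct its contribution to these levels was not tested. No test was made of levels between tables.

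**Figure D1:**
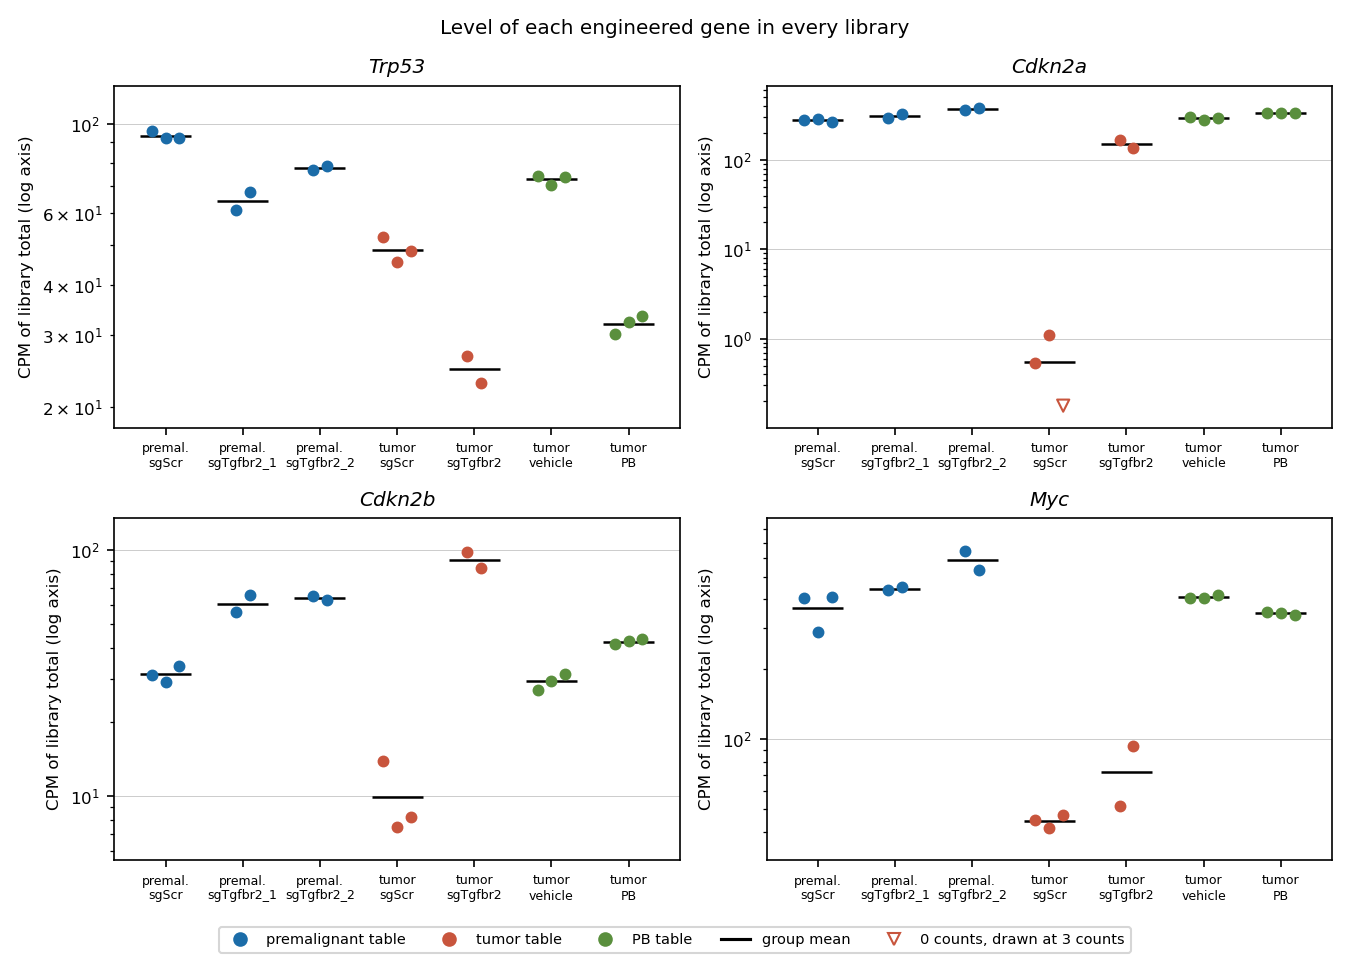
CPM of the library total (log axis) of Trp53, Cdkn2a, Cdkn2b and Myc in all 18 libraries. Points are libraries, black lines are group means, and the open triangle is the tumor sgScr library with 0 Cdkn2a counts, drawn at the level of 3 counts. Cdkn2a in tumor sgScr lies between 0 and 1.11 CPM while every other library lies at or above 136 CPM, and Myc in the tumor table lies at or below 93.3 CPM while the other libraries lie at or above 289.8 CPM.

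Levels of different genes were compared per kilobase of exon. Outside the tumor table Cdkn2a was the highest of the 4 on this scale, with group means of 238 to 317 CPM per kb, followed by Myc with 128 to 218. Cdkn2b (21.1 to 45.9 CPM per kb) and Trp53 (7.92 to 23.1) were lower. The order differed in the tumor table. Tumor sgScr held 16.5 CPM per kb of Myc, 12.1 of Trp53, 7.11 of Cdkn2b and 0.466 of Cdkn2a, and tumor sgTgfbr2 held 129.9 of Cdkn2a, 65.7 of Cdkn2b, 26.7 of Myc and 6.13 of Trp53.

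The ratio of Cdkn2a to Cdkn2b, both per kb, was 9.35 to 11.8 in premalignant sgScr and 5.86 to 7.23 in the 4 premalignant sgTgfbr2 libraries. It was 11.1 to 13.4 in vehicle and 9.11 to 9.69 in PB, 1.92 to 2.02 in tumor sgTgfbr2 and at most 0.176 in tumor sgScr. Within each of the first 2 pairs of groups, the libraries did not overlap, and the group with more Cdkn2b had the lower ratio. Cdkn2b is the denominator, so more Cdkn2b lowers this ratio by construction. The ratio of Myc to Trp53 per kb was 4.69 to 6.59 in premalignant sgScr and 9.94 to 12.5 in sgTgfbr2. It was 8.10 to 8.60 in vehicle and 15.3 to 17.4 in PB, and 1.28 to 1.45 and 2.88 to 6.07 in the libraries labelled tumor sgScr and tumor sgTgfbr2. In all 3 tables the group with the lower Trp53 level had the higher ratio, without overlap. Trp53 is the denominator, so a lower Trp53 level raises this ratio by construction. Mean Myc was also higher with sgTgfbr2, at 518 against 368 CPM in premalignant and 72.5 against 44.7 in tumor libraries. Under PB it was lower than with vehicle, at 349 against 409 CPM. Libraries did not overlap for 51.2% of single genes tested in the premalignant comparison, 74.3% in the tumor table and 74.7% under PB.

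The premalignant comparison asks how the Tgfbr2 guide alters these loci in organoids not declared as tumor. Cdkn2b rose and Trp53 fell, while Cdkn2a and Myc did not pass the threshold. Tgfbr2 itself was 113 ± 21.2 CPM (SD, n = 4) with the guide and 195 ± 20.8 (n = 3) without it (log2 fold change -0.86 ± 0.14 SE, edgeR adjusted p = 0.00132). Of the genes tested, 46.2% passed (22.7% higher, 23.5% lower), and in 51.2% the libraries of the groups did not overlap. Cdkn2b averaged 62.2 ± 4.47 CPM against 31.2 ± 2.35, a log2 fold change of 0.93 ± 0.09 (adjusted p = 1.55e-04). Trp53 averaged 71.1 ± 8.09 CPM against 93.5 ± 2.27, a log2 fold change of -0.46 ± 0.10 (adjusted p = 0.00539). For Cdkn2a the log2 fold change was 0.22 ± 0.11 (adjusted p = 0.124), and for Myc it was 0.43 ± 0.16 (adjusted p = 0.0515). The libraries of the groups did not overlap for any of the 4 genes, to be read against the 51.2% of all genes tested.

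The calls for Trp53 and Cdkn2b passed with either numbered set alone: Trp53 by -0.58 with sgTgfbr2_1 and -0.34 with sgTgfbr2_2, Cdkn2b by 0.91 and 0.96. Cdkn2a passed with sgTgfbr2_2 alone (0.34, adjusted p = 0.00592) and not with sgTgfbr2_1 (0.11, adjusted p = 0.307). Myc likewise passed with sgTgfbr2_2 (0.62, adjusted p = 0.00129) and not with sgTgfbr2_1 (0.24, adjusted p = 0.129). Without sgTgfbr2_1 replicate 1, both Cdkn2a (0.29, adjusted p = 0.0385) and Myc (0.51, adjusted p = 0.0252) passed, and without sgTgfbr2_1 replicate 2 Myc passed (0.49, adjusted p = 0.0389). Without sgScr replicate 2, the library with the lowest Myc level, the Myc difference was 0.29 (adjusted p = 0.203). Myc also passed with DESeq2 (0.44, adjusted p = 0.0197). The pooled fit counts the 4 sgTgfbr2 libraries singly, although they come from 2 sets. With counts summed within each set, Trp53 (-0.45, edgeR adjusted p = 0.0223) and Cdkn2b (0.94, edgeR adjusted p = 0.00169) still passed. Cdkn2a (0.23, edgeR adjusted p = 0.177) and Myc (0.46, edgeR adjusted p = 0.0782) did not.

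**Figure D2:**
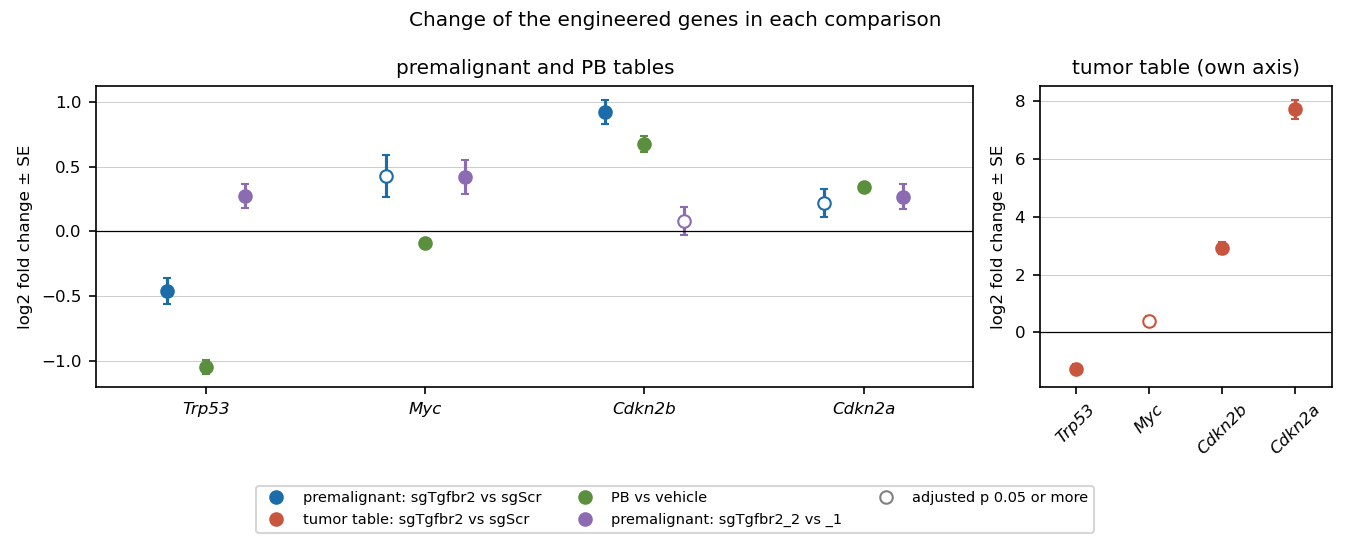
Log2 fold change ± SE of the 4 genes in the premalignant, PB and numbered-set comparisons (left) and in the tumor table (right, on its own axis). Filled points have an adjusted p under 0.05 by edgeR. Trp53 is below 0 and Cdkn2b above 0 in all 3 main comparisons, and the largest change is that of Cdkn2a in the tumor table (7.72).

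The counts of genes around p53 in the premalignant comparison are read against the 46.2% of all genes tested that passed (22.7% higher, 23.5% lower; median log2 fold change 0.00). Of 15 regulators and family members, 6 rose and 2 fell (median 0.22). Mdm4, an inhibitor of p53, rose by 1.53 ± 0.15 on the log2 scale, and Ep300, an acetyltransferase that works with p53, by 0.80 ± 0.18. Wrap53, which lies head to head with Trp53, changed by -0.96 ± 0.14 and the checkpoint kinase gene Chek1 by -0.76 ± 0.13. Of 22 p53 target genes, 8 rose and 5 fell (median 0.16). The stress-response gene Trp53inp1 rose by 1.80 ± 0.23 and the antiproliferative gene Btg2 by 1.74 ± 0.19. The pro-apoptotic gene Bax changed by -0.85 ± 0.12 and the nuclease gene Aen by -0.72 ± 0.09. Mdm2, which encodes the ubiquitin ligase that p19ARF inhibits, differed by 0.01 ± 0.10, and Cdkn1a, the p21 gene, by -0.09 ± 0.09, and neither passed.

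The counts that follow are read against 22.7% of all genes tested that rose and 23.5% that fell. Of 20 genes of the G1 CDK, RB and E2F group, 4 rose and 10 fell (median -0.33). The risers were led by the inhibitor genes Cdkn1b (p27, 1.13 ± 0.16) and Cdkn1c (p57, 1.07 ± 0.13), and Rb1 rose by 0.69 ± 0.16. E2f2 changed by -1.21 ± 0.27 and E2f1 by -0.94 ± 0.13, both activators of S-phase genes. Cdk4, the kinase that p15INK4b and p16INK4a bind, changed by -0.56 ± 0.09, and its cyclin gene Ccnd1 differed by -0.05 ± 0.08 without passing. Among 16 tested regulators of the Cdkn2a-Cdkn2b locus, 5 rose and 3 fell (median 0.02). Id1, an inhibitor of basic helix-loop-helix factors, was at 233 ± 15.9 CPM against 22.8 ± 2.40, a log2 fold change of 3.28 ± 0.12. Cbx7, a Polycomb subunit, rose by 0.95 ± 0.12. The T-box repressor gene Tbx2 changed by -2.44 ± 0.47 and the Polycomb gene Bmi1 by -0.74 ± 0.13.

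MYC target genes were mostly lower: of 20, 1 rose and 17 fell, with a median of -0.79, where 23.5% of all genes tested fell. With library totals in place of TMM scaling 1 rose and 16 fell. Odc1, the first enzyme of polyamine synthesis, was at 375 ± 67.0 CPM against 971 ± 67.5 (log2 fold change -1.44 ± 0.14), and the chaperone gene Hspd1 changed by -1.37 ± 0.17. The exception in the other direction was Tert, the telomerase subunit, at 0.79 ± 0.24, which did not pass without sgScr replicate 1 (0.87) or sgScr replicate 2 (0.57), or with sgTgfbr2_1 alone (0.54). Npm1, a nucleolar protein gene, differed by -0.14 ± 0.14 and did not pass. With sgTgfbr2_1 alone Npm1 passed (-0.30), and with sgTgfbr2_2 alone it did not (0.03). Of 20 tested genes of the MYC-MAX-MXD network, 9 rose and 6 fell (median 0.18), where 22.7% of all genes tested rose. The paralog Mycl rose by 1.36 ± 0.13 and Mlxipl by 1.18 ± 0.23. The ATPase gene Ruvbl1 changed by -0.66 ± 0.11, and Max, the partner of MYC, differed by -0.24 ± 0.11 without passing. Max passed with sgTgfbr2_2 alone (-0.38).

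In the tumor table, Cdkn2a and Cdkn2b were higher and Trp53 lower in the libraries labelled tumor sgTgfbr2 than in those labelled tumor sgScr. Tgfbr2 was at 69.3 ± 2.64 CPM (n = 2) against 120.3 ± 8.76 (n = 3), a log2 fold change of -1.08 ± 0.13 (adjusted p = 4.19e-07). Of the genes tested, 60.3% passed (29.8% higher, 30.5% lower) and in 74.3% the groups did not overlap. The calls were 4492 higher and 4603 lower with TMM scaling, but 6046 and 3361 with library totals, which moved the median of all genes from -0.02 to 0.26. Cdkn2a was counted 5539 times in the 2 tumor sgTgfbr2 libraries and 34 times in the 3 tumor sgScr libraries. That is 257-fold more per library total (exact 95% interval 184 to 372, counting error only) and a log2 fold change of 7.72 ± 0.33 (adjusted p = 5.27e-15). With single libraries left out, the Cdkn2a value ran from 7.20 without tumor sgScr replicate 3 to 8.79 without tumor sgScr replicate 2, which holds 24 of the 34 counts. Cdkn2b averaged 91.4 ± 10.2 CPM against 9.88 ± 3.49, a log2 fold change of 2.93 ± 0.20 (adjusted p = 2.77e-11). Trp53 averaged 24.8 ± 2.73 CPM against 48.8 ± 3.46, a log2 fold change of -1.26 ± 0.16 (adjusted p = 6.69e-07). The groups did not overlap for any of the 4 genes, and the squamous, muscle and gastric marker sums given above moved with the same groups.

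Myc in the tumor table did not pass, with a log2 fold change of 0.40 ± 0.18 (adjusted p = 0.0543). This value rested on 1 library. Without tumor sgTgfbr2 replicate 2 it was -0.05 (adjusted p = 0.854), and without tumor sgTgfbr2 replicate 1 it was 0.74 (adjusted p = 3.35e-04). With library totals in place of TMM it was 0.70 (adjusted p = 0.00322).

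Among 15 p53 regulators 4 rose and 4 fell in the tumor table (median 0.03, against -0.02 over all genes, of which 29.8% rose and 30.5% fell), and 6 rose and 2 fell with library totals. The TMM counts of the regulators are close to that background. Ep300 rose by 0.71 ± 0.19 and Crebbp, its paralog, by 0.69 ± 0.24. Both rested on 1 library, since without tumor sgTgfbr2 replicate 2 they were at 0.25 (adjusted p = 0.295) and 0.0581 (adjusted p = 0.858). Crebbp also did not pass without tumor sgScr replicate 1 (0.70) or replicate 2 (0.57). The DNA damage kinase gene Atr changed by -1.02 ± 0.24 and Trp53bp1, which acts in break repair, by -0.69 ± 0.27. The Trp53bp1 libraries overlapped (7.38 to 17.7 against 13.5 to 18.3 CPM). It did not pass with library totals (-0.40), nor without tumor sgScr replicate 1 (-0.63), tumor sgScr replicate 3 (-0.65) or tumor sgTgfbr2 replicate 1 (-0.22). Of 22 p53 targets, 4 rose and 8 fell (9 and 8 with library totals). Pmaip1, the NOXA gene, was at 65.7 ± 1.35 CPM against 1.31 ± 0.806, a log2 fold change of 5.38 ± 0.28, and Apaf1, the apoptosome scaffold, rose by 1.86 ± 0.20. The adenylate kinase gene Ak1 changed by -2.35 ± 0.16, the cyclin G gene Ccng1 by -1.73 ± 0.14 and Cdkn1a by -0.95 ± 0.13. Mdm2 differed by 0.34 ± 0.15 and did not pass (adjusted p = 0.0592), but did with library totals (0.63).

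Of the G1 CDK, RB and E2F genes in the tumor table, 11 of 20 rose and 3 fell (13 and 2 with library totals; median 0.47). Of all genes tested, 29.8% rose and 30.5% fell with TMM, and 6046 and 3361 genes did with library totals. The cyclin genes Ccne1 and Ccnd1 rose by 1.73 ± 0.23 and 1.05 ± 0.13, and Cdk4 by 0.38 ± 0.13. Cdk4 did not pass without tumor sgScr replicate 2 (0.37), tumor sgScr replicate 3 (0.34) or tumor sgTgfbr2 replicate 1 (0.23). Cdkn2c, the p18 inhibitor gene, changed by -0.91 ± 0.18, and Rb1 differed by 0.09 ± 0.15 without passing, though it passed with library totals (0.37). Of the 17 regulators of the Cdkn2a-Cdkn2b locus, 10 rose and 2 fell (11 and 2 with library totals; median 0.67). Cbx7 rose by 1.52 ± 0.19 and Ets1, an activator of p16INK4a, by 1.15 ± 0.21. Those that fell were the 2 T-box repressor genes on the list, Tbx3 (-3.48 ± 0.25) and Tbx2 (-1.41 ± 0.17). Tbx3 was at 2.29 ± 0.167 CPM against 20.9 ± 0.560.

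Of 20 MYC-MAX-MXD network genes tested in the tumor table, 6 rose and 6 fell (8 and 3 with library totals; median -0.03). These TMM counts are close to the 29.8% of all genes tested that rose and the 30.5% that fell. Mlxip rose by 1.27 ± 0.17 and Mxd1, a competitor of MYC for MAX, by 1.06 ± 0.12. Usp28, a deubiquitinase that stabilises MYC, changed by -1.49 ± 0.22 and Mga by -0.65 ± 0.17, which did not pass with library totals (-0.36). Max differed by -0.18 ± 0.13, did not pass, and turned to 0.10 with library totals. Of 20 MYC targets, 9 rose and 2 fell (14 and 0 with library totals; median 0.18). Odc1 was at 329 ± 6.22 CPM against 50.9 ± 2.30 (2.41 ± 0.13), and the nucleolar gene Fbl rose by 0.96 ± 0.14. The 2 that fell with TMM were Eif4e (-0.52 ± 0.14) and Pa2g4 (-0.42 ± 0.13), and neither passed with library totals (-0.23 and -0.14). Pa2g4 also did not pass without tumor sgTgfbr2 replicate 2 (-0.38). Npm1 differed by 0.24 ± 0.14 without passing, though it passed with library totals (0.53).

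The PB comparison asks what the drug changes in tumor organoids that all carry sgTgfbr2. All 4 genes passed: Trp53 and Myc fell and Cdkn2a and Cdkn2b rose. This stands against a background of 73.3% of genes passing (36.5% higher, 36.8% lower) and 74.7% without overlap, in a table whose replicates differed little. Trp53 averaged 32.0 ± 1.62 CPM (SD, n = 3) with PB and 72.8 ± 2.13 (n = 3) with vehicle, a log2 fold change of -1.05 ± 0.05 (adjusted p = 1.97e-28). Cdkn2b averaged 42.4 ± 1.03 against 29.3 ± 2.16 CPM, a log2 fold change of 0.67 ± 0.06 (adjusted p = 6.37e-16). Cdkn2a averaged 337 ± 2.88 against 292 ± 14.7 CPM, a log2 fold change of 0.34 ± 0.03 (adjusted p = 1.70e-18). Myc averaged 349 ± 4.74 against 409 ± 6.39 CPM, a log2 fold change of -0.09 ± 0.02 (adjusted p = 5.56e-04). For each gene the groups did not overlap.

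Scaling set the size of the smaller changes under PB. With library totals in place of TMM, the median of all genes moved from -0.01 to -0.15, and 3301 genes were higher and 6155 lower, where TMM gave 4666 and 4713. Under those totals Cdkn2a changed by 0.20 and Myc by -0.23, while Trp53 changed by -1.19 and Cdkn2b by 0.53, and all 4 still passed. Tgfbr2, whose guide both groups carry, was at 68.3 ± 1.32 against 96.8 ± 5.24 CPM (log2 fold change -0.36 ± 0.04).

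Of 15 p53 regulators, 5 rose and 6 fell under PB (median -0.02, against -0.01 over all genes, of which 36.5% rose and 36.8% fell), which is near that background. Crebbp rose by 1.05 ± 0.04 and Mdm2 by 0.59 ± 0.04, and the kinase genes Atr and Chek2 changed by -0.74 ± 0.06 and -0.54 ± 0.05. Of 22 p53 targets, 12 rose and 7 fell (11 and 10 with library totals; median 0.21). The pro-apoptotic gene Bbc3 (PUMA) was at 40.6 ± 3.39 CPM against 7.46 ± 0.856 (log2 fold change 2.58 ± 0.09), and the receptor gene Eda2r at 30.4 ± 1.21 against 6.08 ± 0.0358 (2.46 ± 0.09). Apaf1 changed by -1.01 ± 0.07 and Btg2 by -0.61 ± 0.03. Cdkn1a rose by 0.19 ± 0.05 with TMM, but its libraries overlapped in CPM, and with library totals it was at 0.0545 (adjusted p = 0.285) and did not pass.

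Of the G1 CDK, RB and E2F genes, 7 of 20 rose and 9 fell under PB (5 and 13 with library totals; median -0.09). Of all genes tested, 36.5% rose and 36.8% fell, and the counts in this paragraph are read against that. Cdkn1b rose by 0.83 ± 0.03, Cdk6, a target of the Cdkn2 inhibitors, by 0.82 ± 0.05 and Rb1 by 0.44 ± 0.04. E2f3 changed by -1.35 ± 0.07, E2f1 by -1.08 ± 0.08 and Ccnd1 by -0.77 ± 0.02. Cdk4 differed by 0.09 ± 0.03 with TMM and by -0.05 with library totals. Of 16 locus regulators, 7 rose and 7 fell (6 and 8 with library totals). Ets2, an activator of p16INK4a, rose by 0.65 ± 0.03 and the Polycomb gene Rnf2 by 0.57 ± 0.05, while Id1 changed by -1.15 ± 0.08 and Zbtb7a, a repressor of ARF, by -0.58 ± 0.03.

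Of 20 MYC-MAX-MXD network genes, 7 rose and 9 fell under PB (3 and 12 with library totals; median -0.09). Among all genes tested, 36.5% rose and 36.8% fell. Zbtb17, the MIZ1 gene through which MYC represses Cdkn2b, rose by 0.38 ± 0.05, Mycl by 0.33 ± 0.09 and Max by 0.27 ± 0.05. Mycl did not pass with library totals (0.19). Fbxw7, a ligase subunit that marks MYC for degradation, changed by -1.20 ± 0.08 and Mlxipl by -0.91 ± 0.15. Of 20 MYC targets, 9 were higher and 8 lower (7 and 11 with library totals; median 0.00), to be read against the same shares. Odc1 rose by 1.09 ± 0.03, Eif4e by 0.48 ± 0.03 and Npm1 by 0.37 ± 0.02. Ccnd2 changed by -0.86 ± 0.02 and Ldha, the lactate dehydrogenase gene, by -0.69 ± 0.02.

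**Figure D3:**
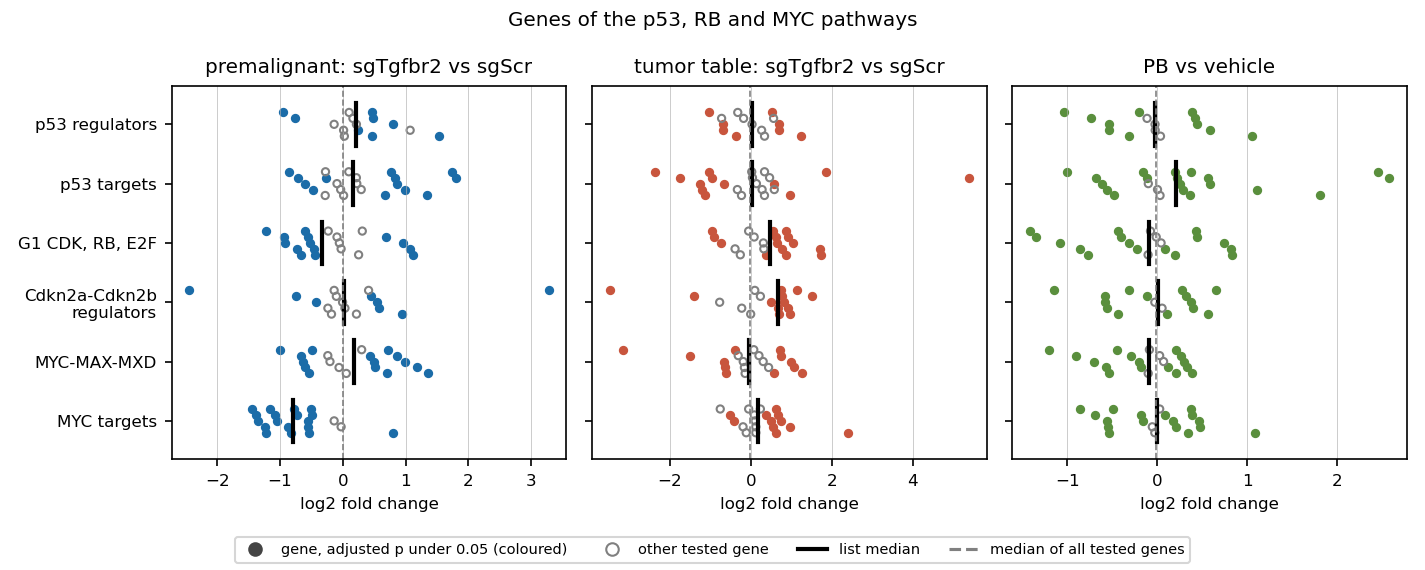
Log2 fold change of the tested genes of 6 pathway lists in the 3 main comparisons, with the vertical position within a list carrying no meaning. Coloured points have an adjusted p under 0.05, open points do not, black bars are list medians and the dashed line is the median of all genes tested. MYC targets lie mostly left of 0 in the premalignant comparison (median -0.79), right of it in the tumor table (0.18 with TMM scaling) and on both sides under PB (0.00).

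The numbered sets sgTgfbr2_1 and sgTgfbr2_2 share a declared genotype, and differed at 3 of the 4 loci. Against a background of 26.3% of genes passing (13.2% higher, 13.1% lower) and 69.1% without overlap, Trp53 was higher in sgTgfbr2_2 by 0.27 ± 0.09 on the log2 scale (adjusted p = 0.0446), Cdkn2a by 0.27 ± 0.09 (adjusted p = 0.0479) and Myc by 0.42 ± 0.13 (adjusted p = 0.0293). Cdkn2b differed by 0.08 ± 0.11 (adjusted p = 0.604), and its libraries overlapped. Tgfbr2 was lower in sgTgfbr2_2 (95.8 ± 13.6 CPM, SD, n = 2) than in sgTgfbr2_1 (129.8 ± 2.44, n = 2), a log2 fold change of -0.43 ± 0.11. The Tgfbr2 call was lost without sgTgfbr2_1 replicate 1 (-0.44), sgTgfbr2_1 replicate 2 (-0.42) or sgTgfbr2_2 replicate 2 (-0.305).

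These set differences were near the threshold, and leaving out any 1 of the 4 sgTgfbr2 libraries ended the calls of Trp53 and Cdkn2a. Without sgTgfbr2_1 replicate 1, sgTgfbr2_1 replicate 2, sgTgfbr2_2 replicate 1 and sgTgfbr2_2 replicate 2, in that order, the Trp53 values were 0.21, 0.34, 0.31 and 0.25 and the Cdkn2a values 0.21, 0.32, 0.32 and 0.22. Without sgScr replicate 1, which enters only through the shared spread, Trp53 (0.27, adjusted p = 0.0720) and Cdkn2a (0.27, adjusted p = 0.0763) also did not pass. The Myc call ended without sgTgfbr2_1 replicate 1 (0.40), sgTgfbr2_1 replicate 2 (0.44) or sgTgfbr2_2 replicate 1 (0.29). Trp53 also did not pass with DESeq2 (0.25, adjusted p = 0.0731).

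Between the sets, 8 p53 targets of 22 were higher in sgTgfbr2_2 and 0 lower by edgeR, and 3 p53 regulators of 15 were higher and 0 lower, where 13.2% of all genes tested were higher and 13.1% lower. The cell cycle kinase gene Plk2 was higher by 0.75 ± 0.10, Trp53inp1 by 0.71 ± 0.14 and the p53 family gene Trp73 by 1.56 ± 0.20. Trp53inp1 did not pass without sgTgfbr2_1 replicate 1 (0.59) or sgTgfbr2_2 replicate 1 (0.61). Of the G1 genes 4 were higher and 2 lower, with E2f2 at 1.03 ± 0.17, Ccnd2 at 1.02 ± 0.11 and Rbl1 at -0.41 ± 0.11. Rbl1 did not pass without sgTgfbr2_1 replicate 1 (-0.38), sgTgfbr2_2 replicate 1 (-0.45) or sgTgfbr2_2 replicate 2 (-0.38). Among locus regulators 4 of 16 were higher and 0 lower, led by Tbx2 at 2.06 ± 0.19. Of MYC targets 2 were higher and 7 lower (median -0.16), with Nme1 at -0.96 ± 0.16 and Ldha at -0.63 ± 0.10. For the MYC-MAX-MXD network the counts were 2 and 1, with Mga at 0.46 ± 0.10, which did not pass without sgTgfbr2_2 replicate 1 (0.38).

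The effect of the Tgfbr2 guide differed between the tumor and premalignant tables at 3 loci. In a fit of the 12 libraries, where 49.5% of genes passed for this difference (25% above 0, 24.5% below), the tumor effect minus the premalignant effect was 7.49 ± 0.43 for Cdkn2a (log2, adjusted p = 1.92e-09), 1.99 ± 0.25 for Cdkn2b (adjusted p = 1.00e-05) and -0.81 ± 0.18 for Trp53 (adjusted p = 0.00175). The Cdkn2a difference ran from 6.98 without tumor sgScr replicate 3 to 8.57 without tumor sgScr replicate 2. For Myc the difference was -0.04 ± 0.28 (adjusted p = 0.948), and it turned to 0.20 with library totals and ranged from -0.49 to 0.30 when single libraries were left out, with tumor sgTgfbr2 replicates 2 and 1 at the ends. Table, declared stage and the cell type markers above changed together, so the stage and these other differences cannot be told apart.

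Genes beside the 4 loci are described with values from the same fits across all genes. Mtap, which encodes the methionine salvage enzyme MTAP, is the nearest gene on the other side of Cdkn2a, 93.39 kb away, and is often lost with CDKN2A in human tumors. It held 11.3, 11.1 and 13.7 CPM in the libraries labelled tumor sgScr and 44.7 and 41.6 in those labelled tumor sgTgfbr2, a log2 fold change of 1.56 ± 0.17 (adjusted p = 9.07e-08). The tumor sgScr levels were the lowest of the series, against 165 to 214 CPM in premalignant libraries and 100 to 106 in the PB table. Whether Mtap and Cdkn2a reads come from the same cells was not tested. In the premalignant table Mtap was at 183 CPM with sgTgfbr2 and 199 with sgScr and did not pass (-0.19 ± 0.10). Mtap passed there with sgTgfbr2_1 alone (-0.26). Under PB it differed by 0.09 ± 0.04 with TMM and by -0.05 with library totals. Without vehicle replicate 3 (0.07) or PB replicate 2 (0.08) Mtap did not pass there. Farther along, 363.809 kb from Cdkn2a, the microRNA gene Mir31 was at 0.734, 1.12 and 1.42 CPM with PB and 5.88, 5.08 and 5.37 with vehicle, without overlap. That is a log2 fold change of -2.17 ± 0.23 (adjusted p = 2.17e-13). These are reads on the gene's row of the table, not a measure of the mature microRNA.

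Wrap53 starts 104 bases from Trp53 on the other strand. In premalignant libraries it was at 14.4 ± 2.14 CPM with sgTgfbr2 and 26.5 ± 1.59 with sgScr (log2 fold change -0.96 ± 0.14, adjusted p = 7.51e-04), and under PB it changed by -0.31 ± 0.10 (adjusted p = 0.00376). In both comparisons Trp53 also fell. In the tumor table Wrap53 differed by 0.27 ± 0.26 (adjusted p = 0.386), where Trp53 fell. The strand setting of the counting is not given in the sources used here, and the annotated genes do not overlap. Atp1b2, 7.863 kb beyond Trp53, changed by -1.14 ± 0.25 in the tumor table and -0.91 ± 0.16 under PB. In the premalignant table it was at 16.7 and 12.6 CPM in the sgTgfbr2_2 libraries, 4.29 and 5.81 in the sgTgfbr2_1 libraries and 4.22, 2.25 and 4.22 with sgScr. The high values were those of sgTgfbr2_2, and the sets differed by 1.55 ± 0.25 (adjusted p = 5.21e-04). Both sets pooled gave 1.41 ± 0.47 against sgScr, and sgTgfbr2_1 alone 0.47 (adjusted p = 0.186). The pooled call was lost on leaving out any 1 sgScr library (1.54, 1.17 and 1.53) or either sgTgfbr2_2 library (1.03 and 1.28).

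Pvt1, a noncoding RNA gene 47.612 kb from Myc, rose by 0.49 ± 0.14 in the premalignant comparison (adjusted p = 0.0165), but did not pass without sgScr replicate 1 (0.46). Under PB it rose by 0.66 ± 0.11 (adjusted p = 4.51e-07), with 12.005, 10.6 and 11.3 CPM against 8.60, 7.10 and 7.80, while Myc fell slightly. Tumor-table Pvt1, given as a level only, stood at 4.24 and 4.23 CPM in the group means of sgTgfbr2 and sgScr, both below the other tables. Fam84b, 1131.613 kb away on the other side of Myc, rose by 2.63 ± 0.16 in the tumor table and by 0.38 ± 0.03 under PB. It differed by 0.16 ± 0.23 in the premalignant comparison without passing. With each set alone it passed, in opposite directions: 0.57 with sgTgfbr2_1 and -0.35 with sgTgfbr2_2. Between the sets, Fam84b was lower in sgTgfbr2_2 than in sgTgfbr2_1 (-0.89 ± 0.10). Gsdmc, a gasdermin gene, lies 1785.594 kb from Myc on the side of Pvt1. It averaged 288 CPM in the libraries labelled tumor sgScr and 5.19 in those labelled tumor sgTgfbr2 (log2 fold change -6.08 ± 0.19). The squamous marker sum was also lower in tumor sgTgfbr2.

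**Figure D4:**
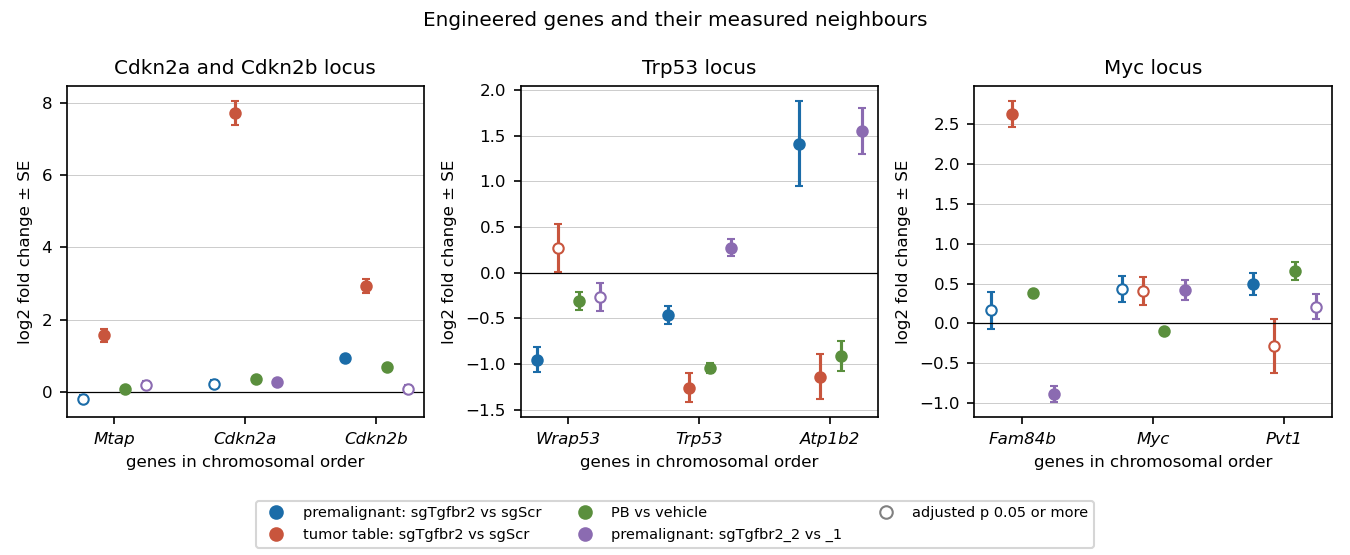
Log2 fold change ± SE of the engineered genes and of measured neighbours, in chromosomal order and not to distance, for 4 comparisons. No neighbour is drawn beyond Cdkn2b, and Fam84b lies 1131.613 kb from Myc. Filled points have an adjusted p under 0.05. In the tumor table Mtap (1.56) changed less than Cdkn2a (7.72) and Cdkn2b (2.93), and at the Trp53 locus Wrap53 is below 0 with Trp53 in the premalignant (-0.96) and PB (-0.31) comparisons.

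The genes whose pattern over libraries was most like each of the 4 were found as the smallest root mean square difference of mean-centred log2(CPM + 1). Over all 18 libraries and 11201 genes with a mean of at least 5 CPM, the 5 nearest to Trp53 were Chst14 (0.18), Tcaf1, Taf1c, 2310033P09Rik and Tpi1. For Cdkn2a they were Krt18 (0.45), Cldn7, Krt17, Pmaip1 and D17H6S56E-5, for Cdkn2b Itgb6 (0.30), Myh14, Nedd4l, Plscr1 and Wipi1, and for Myc Cdcp1 (0.22), Ncapd2, Casc4, Chek2 and Lancl3. The median difference over all genes was 0.81 for Trp53, 2.66 for Cdkn2a, 1.01 for Cdkn2b and 1.21 for Myc. Krt18, a keratin of simple epithelia, ran from 1.07 to 1058 CPM. Without the tumor table (13 libraries, 10491 genes) the nearest genes were Tradd (0.12) for Trp53, Eef1a1 (0.07) for Cdkn2a, Lpin2 (0.10) for Cdkn2b and Sik3 (0.12) for Myc. Of the 5 nearest genes, only Itgb6 for Cdkn2b and Cdcp1 for Myc were found over both sets of libraries. All points share the same libraries, and these values are descriptions.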

How the data were processed

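Bulk RNA-seq of 18 libraries, labelled as mouse organoids, was read from 3 deposited tables, each with the counts of 24421 genes and the authors' own DESeq2 results. The deposited counts are whole reads per gene, not normalized. The authors' log2 fold changes and p-values (with adjusted ones) are deposited in the same tables, and were not used for the tests here. Per the submitters' processing notes, the mm10 build, DESeq2 1.26.0 and STAR 2.6.0a were used. The sources used here give no counting program, strand setting or annotation version. The authors' 18 columns of normalized counts were not used.

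Levels are CPM of the library total. Library totals ran from 14993749 to 21784140 counts, and 3 counts were taken as the floor. Differences were tested per table on all genes with edgeR 4.0.16 in R 4.3.3: TMM scaling, filterByExpr with a minimum count of 10, the quasi-likelihood test and Benjamini-Hochberg adjustment over all genes tested, with a threshold of 0.05. The premalignant fit pooled both numbered sets against sgScr, the sets were compared in a fit of the 7 premalignant libraries with 3 groups, and the difference between tables was fitted on 12 libraries. The fits were tested on simulated data. Replicates differed beyond sampling noise, and none were merged. Alternatives were DESeq2 1.42.0, no TMM, no filter, a filter of 1 CPM, each numbered set alone, counts summed per set, the replicate block and leaving out each library. The 4 genes and the 6 pathway lists were chosen with earlier results of these data known, and 5 genes stand on more than 1 list (Ccnd2, Cdk4, Cdkn1a, Mdm2 and Npm1). From each list and comparison, up to 2 genes in each direction were named, those with the largest change past the threshold and a mean of at least 5 CPM, plus Mdm2, Cdkn1a, Cdk4, Ccnd1, Rb1, Max, Npm1 and Odc1 for the 3 main comparisons. A gene that this rule names on the MYC-MAX-MXD list is not reported here. Neighbours were the 3 nearest counted genes on each side of a locus, and differences are given for those with a mean of at least 5 CPM in either group of a comparison. Symbols were matched to GENCODE M21 (95.72% found). Of each table's symbols, 24394 occurred in all 3. Dates had replaced 27 symbols each in the tumor and PB files, none of them a gene named here.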

Additional observations from a re-analysis of the deposited data

Results flagged for a closer look

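The effect of the Tgfbr2 guide differed between the tumor table and the premalignant table at 3 of the 4 loci, by the test of the difference itself in edgeR's quasi-likelihood fit. Of all genes tested, 49.5% passed for this difference. The log2 difference was 7.49 for Cdkn2a, 1.99 for Cdkn2b and -0.81 for Trp53. Cell type markers differed between the same libraries, and their part in these differences was not tested.

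The premalignant sets sgTgfbr2_1 and sgTgfbr2_2, with the same declared genotype, differed from each other at 3 loci. Between these sets 26.3% of all genes tested passed. Values were higher in sgTgfbr2_2 by 0.27 for Trp53, 0.27 for Cdkn2a and 0.42 for Myc on the log2 scale. Each of these 3 calls was lost on leaving out some single libraries, as given with the comparison. A library standing far from its group was looked for in the 4 genes over the pooled premalignant sgTgfbr2 libraries, and none was found. The rule sets the gap to the next library against the range. Over 4 libraries pooled from differing sets it can flag little, so no conclusion is drawn. The other groups were not examined.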

How the results depend on the processing

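Of 248 alternative values of the 20 fold changes of Trp53, Cdkn2a, Cdkn2b and Myc, 211 kept direction and side of the threshold, 18 lost the call, 13 gained it and 6 changed sign. The cause of these changes was not tested. In the premalignant comparison, Cdkn2a passed with library totals (0.29) and with sgTgfbr2_2 alone (0.34), and ranged from 0.16 to 0.29 over single libraries left out. Myc passed with DESeq2 (0.44), library totals (0.50), no filter (0.44), a filter of 1 CPM (0.45) and sgTgfbr2_2 alone (0.62), and ranged from 0.29 to 0.51. In the tumor table Myc passed with library totals (0.70) and with no filter (0.40) and ranged from -0.0460 to 0.74. Between the sets, Trp53 did not pass with DESeq2 (0.25), no filter (0.25) or a filter of 1 CPM (0.24), nor Cdkn2a with no filter (0.24) or a filter of 1 CPM (0.24). Over single libraries left out, Trp53 ranged from 0.21 to 0.34, Cdkn2a from 0.21 to 0.32, Cdkn2b from -0.0229 to 0.192 and Myc from 0.29 to 0.54, and the genes called from 1448 to 5047. The difference of the Myc effect between tables turned to 0.20 with library totals, to 0.09 without premalignant sgScr replicate 2, to 0.09 without sgTgfbr2_2 replicate 1 and to 0.30 without tumor sgTgfbr2 replicate 1, and ranged from -0.49 to 0.30.

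With TMM-scaled CPM, 10 of 28 group means moved by more than their SD: Trp53 to 96.2 (premalignant sgScr), 76.2 (sgTgfbr2_2), 52.8 (tumor sgScr), 22.1 (tumor sgTgfbr2) and 69.4 (vehicle), Myc to 48.4 (tumor sgScr), 389.8 (vehicle) and 366 (PB), Cdkn2a to 353 (PB) and Cdkn2b to 44.5 (PB). For the other named genes, these counts cover alternatives that kept the sign. Values past the threshold kept the call in 1234 alternatives and lost it in 71, and values not past it gained a call in 8. Calls that single libraries or the scaling decide stand beside the genes above. With the block, calls were lost for Atp1b2 (1.57) and Pvt1 (0.45) in the premalignant comparison and for Cdk4 (0.34), Pa2g4 (-0.37) and Trp53bp1 (-0.73) in the tumor table. Among these genes 14 further values changed sign. Of them, Cdk4 and Mtap under PB also lost the call, and Fam84b with sgTgfbr2_2 alone gained one. With library totals the values that changed sign were Cdk4 (-0.0523) and Mtap (-0.0493) under PB, Ccnd1 (0.0139) in the premalignant and Max (0.10) in the tumor comparison. In the premalignant comparison they were Cdkn1a with sgTgfbr2_1 alone (0.00551), Fam84b (-0.35), Npm1 (0.0296) and Mdm2 (-0.12) with sgTgfbr2_2 alone, and Mdm2 with the block (-0.0253) and over single libraries left out (-0.0305 to 0.0718, below 0 without sgScr replicate 3 or either sgTgfbr2_1 library). In the tumor table they were Rb1 without tumor sgTgfbr2 replicate 2 (range -0.0246 to 0.182) and Wrap53 without tumor sgTgfbr2 replicate 1 (range -0.0873 to 0.550). List counts stayed within 1.5 times in 500 of 576 alternatives.

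Same-numbered replicates did not deviate together (r from -0.09 to 0.13 over premalignant pairs), so the numbers were not taken as pairing. With the replicate block, Trp53 was -0.49 and Myc 0.51 in the premalignant comparison, no call of the 4 genes changed, and the genes called were 4739 in place of 6057 (premalignant), 7607 in place of 9095 (tumor), 9365 in place of 9379 (PB) and 5365 in place of 3535 (between sets). Depth limits Cdkn2a in tumor sgScr, where 34 counts in all set the size of its change.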
